A study of Mus musculus with 17 samples.

Results

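Brain tumours of mice raised by in utero electroporation with YAP-M (4 libraries, called YAP-M tumours) were set against neural progenitor cells that derive from ES cells and overexpress YAP (2 libraries, called NSC-YAP cells). These are 6 of the 17 samples of the series and were taken by their labels, and no measured value entered the choice. The statistical fit below also held 3 libraries of wild-type subventricular zone (SVZ). It held 3 of YAP-M without its intrinsically disordered region (YAP-M-dIDR). In utero electroporation puts a plasmid into cells that line the ventricle of the embryonic brain, and YAP-M is the fusion of YAP with the protein MAMLD1 known from ependymomas of the forebrain. The NSC-YAP cells were grown with EGF, basic FGF and heparin. The labels used here give no strain, age or sex and no promoter for the YAP or YAP-M sequence. They give neither the number of animals behind a tumour library nor whether the NSC-YAP libraries are separate cultures. The p-values below therefore measure the spread between libraries. In the main fit that spread was estimated over 12 libraries of 4 groups, not over the 6 compared libraries alone. Tumour tissue and cultured cells, fused and unfused YAP, and tissue with and without host cells differ between the groups at the same time, and their parts cannot be told apart. In whole-tissue RNA, fewer cells of a type and less RNA per cell cannot be told apart either.

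YAP is a coactivator without a DNA-binding domain of its own. It binds the TEAD transcription factors at their target genes, and the Hippo kinases LATS1 and LATS2 phosphorylate it and keep it in the cytoplasm. In the developing brain YAP is active in radial glia, the progenitors at the ventricle, which also depend on Notch signalling. Fusion proteins of YAP keep its TEAD-binding part and are known as drivers of a group of ependymomas.

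Total counts per library were 20784130 to 24606778 in the YAP-M tumours and 25240544 to 25463303 in the NSC-YAP cells. Values are CPM, counts scaled to the size of each library with TMM factors, which make up for differences in composition. Of 18329 genes with enough counts to test, 5293 (28.9%) were higher and 3951 (21.6%) lower in the tumours by the rule used throughout, which is edgeR's quasi-likelihood test, a Benjamini-Hochberg adjusted p under 0.05 and at least a 2-fold change. Of all calls, 57.3% were thus higher in the tumours, a share that was 44.0% after quantile normalization. Quantile normalization was run on log2(CPM + 0.5), an offset that shrinks changes of genes with low counts. In 14896 genes (81.3%) the tumour and NSC-YAP values did not overlap, so that separation of the groups is the common case here. The tumours resembled each other (Spearman's rho over genes 0.970 to 0.988) less than the NSC-YAP libraries did (0.997), and tumour and cell libraries correlated at 0.748 to 0.768. Absence from the cells was more frequent than absence from the tumours: 431 genes had no count in either NSC-YAP library and at least 1 CPM in each tumour, whereas 2 genes had no count in any tumour and at least 1 CPM in both NSC-YAP libraries. Having no count is harder to meet over 4 libraries than over 2. With a cut-off in CPM, 453 genes were below 0.2 CPM in both NSC-YAP libraries and at least 5 CPM in each tumour. The reverse held for 7 genes.

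The tumour libraries differed in sex-linked transcripts. Xist, the RNA that silences an X chromosome in female cells, had 361, 360.3, 1.03 and 355 CPM in the YAP-M tumours, against 0.245 and 0.327 CPM in the NSC-YAP cells. Ddx3y, a gene of the Y chromosome, had 0.0369, 0.0742, 81.9 and 0.111 CPM in the YAP-M tumours, against 48.1 and 50.4 CPM in the NSC-YAP cells. Tumour replicate 3 thus had the pattern of the NSC-YAP cells, Ddx3y without Xist, and the other tumours had Xist without Ddx3y. Xist was called higher in the tumours (edgeR adjusted p = 0.0189), a call that was lost without either NSC-YAP library and after quantile normalization (limma adjusted p = 0.0558). Ddx3y was not called (log2 fold change -1.27, edgeR adjusted p = 0.623), but was called lower without tumour replicate 3 (log2 fold change -9.24, edgeR adjusted p = 0.0111) and with a replicate block (-7.00, adjusted p = 0.0131).

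Promoter sequences are shown for 3 genes called in this comparison. Ankrd1 and Cyr61 are established targets of YAP and TEAD, and Hes5 is an established target of Notch. Ctgf, another YAP/TEAD target, was not matched to a window. Each window runs from 250 bases before to 50 bases after the transcript start, in RefSeq's table for GRCm38.p6, 5′ to 3′ on the gene's strand. Ankrd1 lies on the minus strand (chr19:36119795-36120094), Cyr61, which RefSeq names Ccn1, on the minus strand (chr3:145649936-145650235), and Hes5 on the plus strand (chr4:154960673-154960972). Capitals mark the 6 letters GGAATG or their reverse complement CATTCC, the core that TEAD factors recognise, in Ankrd1 and Cyr61, and the 6 letters TGGGAA or their reverse complement TTCCCA, the core that the Notch effector RBPJ recognises, in Hes5.
Ankrd1: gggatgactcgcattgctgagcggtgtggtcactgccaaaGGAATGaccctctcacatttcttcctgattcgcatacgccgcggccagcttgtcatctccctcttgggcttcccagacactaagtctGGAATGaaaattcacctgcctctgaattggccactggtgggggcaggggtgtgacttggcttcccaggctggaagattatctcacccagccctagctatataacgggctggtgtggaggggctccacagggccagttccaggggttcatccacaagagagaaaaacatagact
Cyr61: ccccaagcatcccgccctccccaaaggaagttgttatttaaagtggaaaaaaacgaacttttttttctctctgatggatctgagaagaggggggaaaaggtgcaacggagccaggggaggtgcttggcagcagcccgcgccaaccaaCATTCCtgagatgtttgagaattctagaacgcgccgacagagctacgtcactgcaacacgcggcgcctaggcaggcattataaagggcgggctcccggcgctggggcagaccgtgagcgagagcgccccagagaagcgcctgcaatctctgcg
Hes5: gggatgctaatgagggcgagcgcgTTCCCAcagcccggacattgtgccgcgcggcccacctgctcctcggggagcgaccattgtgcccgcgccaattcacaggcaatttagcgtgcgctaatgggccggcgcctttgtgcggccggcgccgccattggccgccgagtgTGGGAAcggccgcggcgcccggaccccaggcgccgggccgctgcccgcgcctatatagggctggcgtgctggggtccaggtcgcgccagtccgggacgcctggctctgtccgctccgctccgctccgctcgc

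The Ankrd1 window held the TEAD letters at positions -210 and -123 from the start, the Cyr61 window at -103, and the Hes5 window held the RBPJ letters at -226 and -82. Among 27025 genes with a window, 16.6% held the TEAD letters and 28.3% the RBPJ letters in at least 1 window. Of 22 YAP/TEAD target genes considered below, 15 were matched to a window by symbol and 7 of these held the TEAD letters. Of 18 Notch pathway genes, 16 were matched and 6 held the RBPJ letters. Hes5 is counted with the radial glia markers and not among these 18. A match of 6 letters is a description of the sequence and was not tested as a binding site.

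Yap1 itself was lower in the tumours than in the NSC-YAP cells. It lies on chromosome 9 (chr9:7931999-8004596, mm10) and had 93.02, 105, 98.4 and 92.8 CPM in the YAP-M tumours, against 242 and 239 CPM in the NSC-YAP cells. No tumour reached the level of either NSC-YAP library, and the difference of log2(CPM + 1) was -1.30 (two-sided exact permutation test, p = 0.0667, the smallest p that 4 against 2 libraries allow). In the fit across all genes Yap1 was called lower (log2 fold change -1.30 ± 0.48 SE, edgeR adjusted p = 0.0288). That fit also drew its spread from the YAP-M-dIDR libraries, in which Yap1 ran from 184 to 1276 CPM. Their part in the SE was not tested. Yap1 missed the threshold in 5 of the 6 fits that left out 1 library, with edgeR adjusted p 0.0588 to 0.0631 without tumour replicate 1, 3 or 4. It kept its call without tumour replicate 2. Mamld1, the fusion partner, had 35.3, 42.9, 28.5 and 32.1 CPM in the YAP-M tumours, against 21.2 and 23.6 CPM in the NSC-YAP cells, which was not called (log2 fold change 0.63, edgeR adjusted p = 0.00713). Neither value says how much of the construct was expressed, because the labels used here do not give the species of the YAP or MAMLD1 sequence in the constructs. Wwtr1, the gene of the YAP paralog TAZ, had 163, 149.9, 126 and 172 CPM in the YAP-M tumours, against 129 and 140.0 CPM in the NSC-YAP cells, and the groups overlapped.

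Established targets of YAP and TEAD were far higher in the tumours although Yap1 counts were lower. Of 22 target genes tested, the call was higher for 18 and lower for 1, beside 28.9% and 21.6% of all tested genes, and the median log2 fold change of the list was 2.22 against 0.10 for all tested genes. Ctgf (chr10:24595442-24598683, mm10), which encodes a secreted matricellular protein, had 900.0, 882, 999 and 806 CPM in the YAP-M tumours, against 0.204 and 0.286 CPM in the NSC-YAP cells (log2 fold change 11.81 ± 0.45 SE, edgeR adjusted p = 6.22e-09). Ankrd1 (chr19:36111965-36119844), a nuclear ankyrin-repeat protein, had 1271, 1099, 1252 and 962 CPM in the YAP-M tumours, against 0.652 and 0.163 CPM in the NSC-YAP cells (log2 fold change 11.44 ± 0.78 SE, edgeR adjusted p = 2.69e-07). Both genes were close to silent in the NSC-YAP cells and among the abundant transcripts of each tumour. The Ankrd1 fold change rests on few NSC-YAP counts and was 12.75 on the log2 scale without NSC-YAP replicate 1 and 10.75 without NSC-YAP replicate 2. Cyr61 (chr3:145646976-145649981), a matricellular relative of Ctgf, was expressed in both groups, with 1051, 943, 1034 and 820.3 CPM in the YAP-M tumours, against 38.5 and 35.2 CPM in the NSC-YAP cells (log2 fold change 4.71 ± 0.18 SE, edgeR adjusted p = 6.65e-09).

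Other targets followed with intermediate contrasts. Myof, the membrane-repair protein myoferlin, had 210.4, 206, 229.9 and 191 CPM in the YAP-M tumours, against 1.43 and 1.47 CPM in the NSC-YAP cells. Nuak2, a kinase of the AMPK family, had 33.7, 37.7, 37.2 and 36.3 CPM in the YAP-M tumours, against 0.734 and 1.14 CPM in the NSC-YAP cells. Both were close to 1 CPM in the NSC-YAP cells and varied little between the tumours. Crim1, a transmembrane antagonist of BMPs, had 368, 392, 241 and 349.5 CPM in the YAP-M tumours, against 26.4 and 22.9 CPM in the NSC-YAP cells, and Nt5e, the ecto-enzyme CD73, had 89.8 to 131 against 4.49 to 5.10 CPM. The NSC-YAP cells expressed some targets at appreciable levels, and in these the contrast was smaller. Amotl2 and Lats2 (the sum of the file's lines under that symbol), both feedback inhibitors of YAP, had 741 to 819 against 107 to 111 CPM and 161 to 204 against 19.8 to 20.1 CPM in tumours and cells. The receptor kinase Axl had 424, 415, 358 and 421 CPM in the YAP-M tumours, against 139.9 and 136 CPM in the NSC-YAP cells (log2 fold change 1.55, edgeR adjusted p = 4.01e-07). One target went the other way. This was Fjx1, a secreted Golgi kinase of the Fat-Dachsous system, with 11.5, 9.76, 10.7 and 14.01 CPM in the YAP-M tumours, against 76.4 and 78.04 CPM in the NSC-YAP cells (log2 fold change -2.75, edgeR adjusted p = 7.37e-07). Igfbp3, Asap1 and Gadd45a were not called: Igfbp3 had 258 to 370.3 against 228 to 239 CPM and Asap1 190.4 to 227 against 124 to 132 CPM, and both were expressed in the NSC-YAP cells. Endothelial and pericyte markers, described below, also moved with the tumours, at summed levels of 451 to 608 CPM in the YAP-M tumours, against 25.03 to 25.5 CPM in the NSC-YAP cells, and their part in the target genes was not tested.

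**Figure D1:**
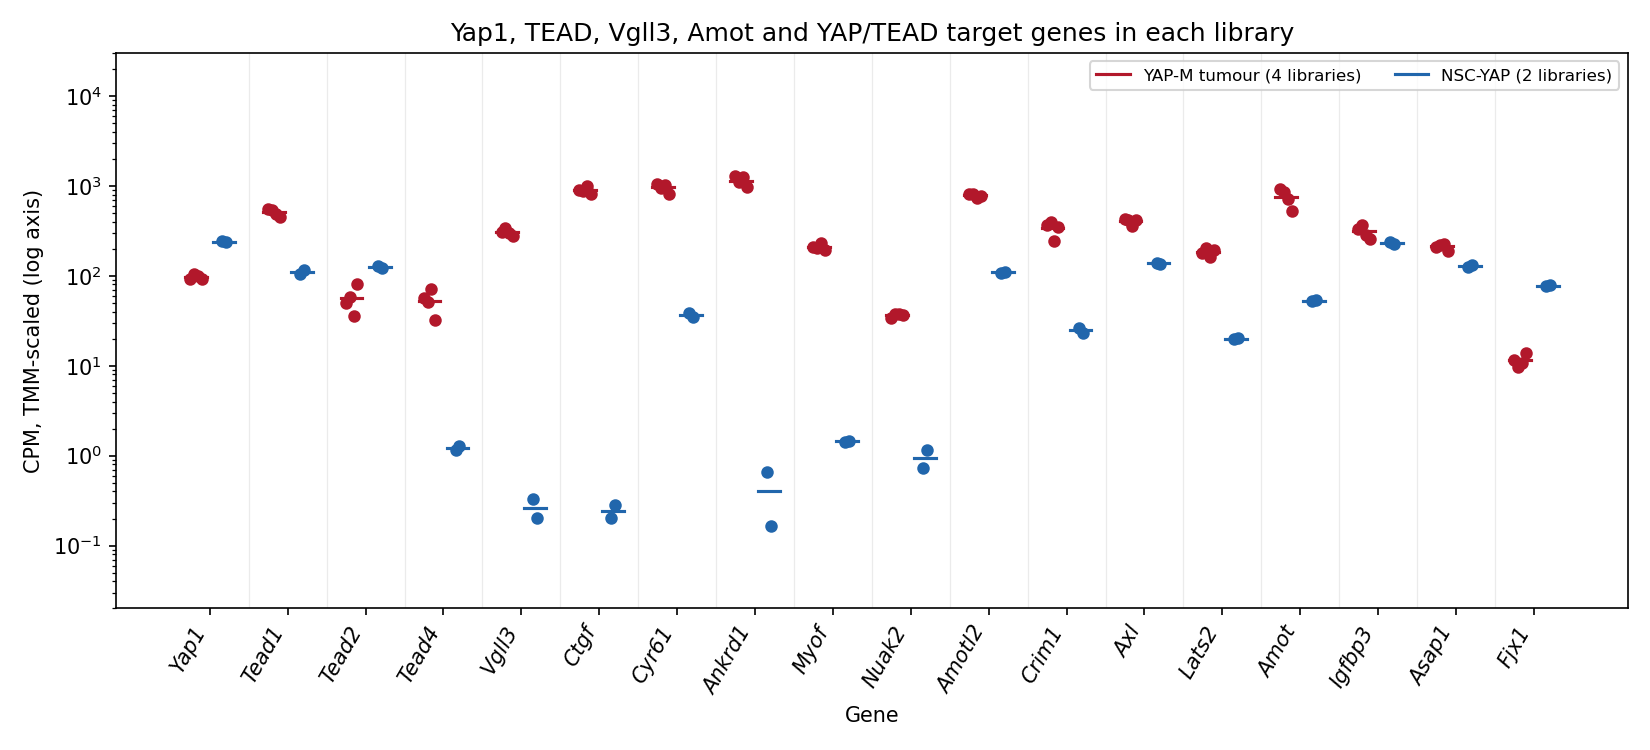
CPM (log axis) of Yap1, TEAD, Vgll3 and Amot genes and of target genes in each library, with YAP-M tumours (4 points) left of NSC-YAP cells (2 points) and short lines at the group means. Yap1 and Fjx1 lie lower in the tumours, while Ctgf and Ankrd1 lie near 1000 CPM in the tumours and below 1 CPM in the NSC-YAP cells.

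The partners through which YAP acts differed as well. Among 24 genes of the Hippo pathway, 13 were called higher and 3 lower (54.2% and 12.5%), beside 28.9% and 21.6% of all tested genes. Tead1 had 559.5, 542, 492 and 447 CPM in the YAP-M tumours, against 104 and 116 CPM in the NSC-YAP cells. Tead4 had 56.8, 51.5, 71.2 and 31.9 CPM in the YAP-M tumours, against 1.14 and 1.27 CPM in the NSC-YAP cells. Tead2, the TEAD of embryonic neural progenitors, had 50.1, 57.9, 35.6 and 80.8 CPM in the YAP-M tumours, against 129 and 123 CPM in the NSC-YAP cells. The TEAD genes thus did not share a direction. Tead3 was not called (24.7 to 31.7 against 20.96 to 22.9 CPM). Per kilobase of transcript, tumour against cell levels were 37.6 against 8.11 for Tead1, 11.7 against 26.3 for Tead2, 6.45 against 4.99 for Tead3 and 14.7 against 0.335 for Tead4, in CPM per kilobase. Tead2 was thus the highest of the 4 in the NSC-YAP cells and Tead1 the highest in the tumours. The call of Tead2 as lower was lost without tumour replicate 3 (log2 fold change -0.97), and the lower calls of the list then numbered 1.

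Vgll genes encode TEAD cofactors that compete with YAP for the same surface. Vgll3 had 306, 342, 298 and 279.8 CPM in the YAP-M tumours, against 0.326 and 0.204 CPM in the NSC-YAP cells (log2 fold change 10.15, edgeR adjusted p = 4.66e-09). Vgll2 had 89.00, 111, 56.6 and 114 CPM in the YAP-M tumours, against 2.16 and 1.80 CPM in the NSC-YAP cells. Vgll1 had 6.97, 2.56, 9.44 and 0.557 CPM in the YAP-M tumours, against 0 CPM in both NSC-YAP libraries, at least 77.3-fold higher by its counts against a floor of 3 counts over both cell libraries. Of the 3, Vgll1 differed most between tumours and was lowest in replicate 4. Vgll4 was not called (90.2 to 115 against 123 to 130.3 CPM). Inhibitors of YAP were among the genes called higher: Amot, an angiomotin that holds YAP at junctions, had 934, 849, 707 and 526 CPM in the YAP-M tumours, against 52.5 and 53.5 CPM in the NSC-YAP cells, and Wwc2 and Wwc1, which activate LATS kinases, had 362 to 433 against 47.4 to 50.7 CPM and 302 to 418 against 94.3 to 102 CPM. The kinases at the head of the pathway were not all called. Stk4 (MST1) was called higher at 161 to 245 against 41.4 to 43.9 CPM, and Stk3 (MST2, 41.3 to 51.7 against 35.3 to 35.8 CPM) and Lats1 (66.2 to 91.2 against 61.1 to 64.03 CPM) were not called. The upstream cadherin pair was split. Dchs1, the protocadherin ligand of Fat4, was called lower, at 18.7, 19.4, 10.6 and 23.4 CPM in the YAP-M tumours, against 126 and 129 CPM in the NSC-YAP cells, while its receptor Fat4 was called higher at 33.7 to 72.4 against 24.01 to 26.95 CPM.

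AP-1 factors bind beside TEAD at many YAP-responsive enhancers. Of 12 tested, 9 were called higher and 2 lower (75% and 16.7%), beside 28.9% and 21.6% of all tested genes. Fosl2 had 203, 197, 145 and 141 CPM in the YAP-M tumours, against 54.5 and 54.3 CPM in the NSC-YAP cells. Junb had 102 to 124 against 27.03 to 28.9 CPM, Fos 90.6 to 141 against 32.8 to 36.4 CPM and Atf3 19.3 to 25.4 against 3.31 to 3.79 CPM, in tumours against cells. The lower ones were Jund and Jun. Jund, also summed over lines of the same symbol, had 84.5, 96.3, 107 and 98.5 CPM in the YAP-M tumours, against 376 and 351 CPM in the NSC-YAP cells. Jun had 73.3, 78.1, 74.4 and 67.9 CPM in the YAP-M tumours, against 155 and 153 CPM in the NSC-YAP cells. Jun sat at the 2-fold limit (log2 fold change -1.07, edgeR adjusted p = 0.000483) and lost its call under 5 other settings and without tumour replicate 4 (log2 fold change -0.99), which left Jund alone.

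Genes of the contractile cytoskeleton, many of them driven by SRF, a factor that responds to actin, were higher in the tumours. Of 18 tested, 14 were called higher and 0 lower, beside 28.9% and 21.6% of all tested genes. The median log2 fold change of the list was 2.71. Acta2, smooth muscle actin, had 1925, 2060.1, 1544 and 2281 CPM in the YAP-M tumours, against 2.20 and 1.39 CPM in the NSC-YAP cells (log2 fold change 10.08 ± 0.73 SE, edgeR adjusted p = 4.01e-07). Tpm2, a tropomyosin, had 239.9, 222, 152 and 212 CPM in the YAP-M tumours, against 0.897 and 0.572 CPM in the NSC-YAP cells. Cnn1, the smooth muscle calponin, had 55.4, 70.2, 29.04 and 98.3 CPM in the YAP-M tumours, against 0.122 and 0.327 CPM in the NSC-YAP cells, with the lowest value in tumour replicate 3. These smooth muscle genes were near or below 2 CPM in the NSC-YAP cells. Genes that both groups expressed also differed, with Cald1, caldesmon, at 1366, 1349, 1335 and 1313 CPM in the YAP-M tumours, against 107 and 108 CPM in the NSC-YAP cells. Actn1 had 541 to 599.8 against 59.9 to 62.5 CPM, Zyx 459.8 to 558 against 75.01 to 76.2 CPM and Cnn2 447 to 568 against 34.5 to 37.8 CPM. The increase did not extend to every gene of the list. The cytoplasmic actins and Srf itself were not called, with Actb at 2439 to 3035 against 1839 to 1935 CPM, Actg1 at 1907 to 2816 against 3322 to 3515 CPM and Srf at 83.8 to 110.2 against 59.9 to 64.1 CPM, although Actb was called higher after quantile normalization. The pericyte gene Pdgfrb had 54.4 to 72.01 against 0.163 CPM and Rgs5 63.6 to 100.2 against 0.327 to 0.408 CPM, and their part in these differences was not tested.

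Matrix genes were higher in the tumours. Of 15 collagen genes tested, 12 were called higher and 0 lower. Of 24 genes of matrix glycoproteins and matrix remodelling, 20 were called higher and 0 lower. The shares over all tested genes were 28.9% and 21.6%. Col5a2, a fibrillar collagen, had 1298, 1390.0, 888 and 1375 CPM in the YAP-M tumours, against 0.122 and 0.204 CPM in the NSC-YAP cells (log2 fold change 12.84 ± 0.40 SE, edgeR adjusted p = 2.43e-09). Col8a1 had 680.0, 579.6, 326 and 583 CPM in the YAP-M tumours, against 0.285 and 0.0817 CPM in the NSC-YAP cells. Fibrillar and network-forming collagens were thus both involved. Col1a2, of type I collagen, had 556, 752, 180.1 and 943 CPM in the YAP-M tumours, against 0.775 and 0.653 CPM in the NSC-YAP cells. Col12a1 had 1083, 1050.1, 511 and 1037 CPM in the YAP-M tumours, against 11.2 and 14.1 CPM in the NSC-YAP cells. In these collagens tumour replicate 3 was the lowest tumour, and it stayed above the NSC-YAP cells. The summed collagen level was 7167, 7009, 3950 and 7123 CPM in tumour replicates 1 to 4 and 511 to 525 CPM in the NSC-YAP cells.

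Among matrix glycoproteins, Thbs1 (thrombospondin 1) had 1272, 1328, 920.4 and 1589 CPM in the YAP-M tumours, against 6.81 and 6.37 CPM in the NSC-YAP cells. Spp1 (osteopontin) had 635, 1194, 560.4 and 841 CPM in the YAP-M tumours, against 4.77 and 4.49 CPM in the NSC-YAP cells. Both were below 7 CPM in each NSC-YAP library. Lox, which cross-links collagen, had 1085, 747, 476 and 758 CPM in the YAP-M tumours, against 0.571 and 0.49 CPM in the NSC-YAP cells. Mmp14, a membrane-bound collagenase, had 249, 242, 189 and 263 CPM in the YAP-M tumours, against 0.204 and 0.163 CPM in the NSC-YAP cells (log2 fold change 10.28, edgeR adjusted p = 9.45e-10). Plau and Plaur, the protease urokinase and its receptor, had 26.1 to 36.1 against 0.285 to 0.327 CPM and 47.9 to 61.2 against 0.204 to 0.368 CPM. Matrix genes already expressed in culture had smaller fold changes. Fn1, fibronectin, was abundant in both groups and called higher, with 2099, 2496, 1599 and 1566 CPM in the YAP-M tumours, against 435 and 479 CPM in the NSC-YAP cells. Sparc (1303 to 1691 against 2856 to 2907 CPM), Timp2 (446 to 523 against 314 to 317 CPM) and Timp3 (214 to 389 against 185 to 186 CPM) were not called. Of 21 integrins and laminins tested, 7 were called higher and 5 lower (33.3% and 23.8%), close to the 28.9% and 21.6% of all tested genes. The laminin receptor chain Itga3 had 367, 314, 279 and 287 CPM in the YAP-M tumours, against 11.9 and 11.6 CPM in the NSC-YAP cells and the collagen receptor chain Itga1 222 to 336 against 9.01 to 10.5 CPM. Itgb8, which activates TGF-beta, was called lower at 104, 94.96, 56.5 and 81.4 CPM in the YAP-M tumours, against 295 and 339 CPM in the NSC-YAP cells, and Itga7 at 24.3 to 34.6 against 153 to 164 CPM.

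The neural progenitor programme was lower in the tumours. Of 18 markers of radial glia and neural stem cells, 11 were called lower and 1 higher (median log2 fold change -2.77). The shares over all tested genes were 21.6% and 28.9%. The SOXB1 factors, which maintain neural progenitors, were all called lower: Sox2 had 23.3, 25.3, 28.1 and 24.5 CPM in the YAP-M tumours, against 500.4 and 477 CPM in the NSC-YAP cells (log2 fold change -4.27 ± 0.27 SE, edgeR adjusted p = 1.32e-07). Sox1 had 1.81, 1.67, 2.86 and 1.64 CPM in the YAP-M tumours, against 110.2 and 107 CPM in the NSC-YAP cells. Sox3 had 1.40, 1.45, 2.56 and 1.38 CPM in the YAP-M tumours, against 137 and 123 CPM in the NSC-YAP cells. No tumour exceeded 3 CPM in Sox1 or Sox3. Fabp7, a lipid carrier of radial glia, had 56.3, 68.2, 37.9 and 38.1 CPM in the YAP-M tumours, against 984 and 943 CPM in the NSC-YAP cells. Membrane proteins of glial progenitors were lower by a similar factor. Ptprz1, a receptor phosphatase of glial progenitors, had 125, 112, 147 and 119 CPM in the YAP-M tumours, against 2339 and 2555 CPM in the NSC-YAP cells. Slc1a3, the glutamate transporter GLAST, had 279, 249.5, 331 and 203 CPM in the YAP-M tumours, against 3756 and 3703 CPM in the NSC-YAP cells. In each of these genes every tumour lay far below both NSC-YAP libraries, and Sox1 and Sox3 were highest in tumour replicate 3 among the tumours.

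Intermediate filament and growth factor receptor genes of progenitors were lower by less than 2-fold. Vim had 1701, 1884, 1522 and 2008 CPM in the YAP-M tumours, against 2307 and 2129 CPM in the NSC-YAP cells. Nes had 115, 123, 75.4 and 130.5 CPM in the YAP-M tumours, against 173 and 172 CPM in the NSC-YAP cells. Egfr had 300.4, 285, 239 and 244 CPM in the YAP-M tumours, against 311 and 332 CPM in the NSC-YAP cells. None of the 3 was called (log2 fold changes -0.32, -0.63 and -0.27), although every tumour lay below both NSC-YAP libraries. Nes missed only the 2-fold limit (edgeR adjusted p = 0.0141). Vim was above 0 on the log2 scale after quantile normalization. Pax6, a factor of cortical radial glia, was the marker called higher, with 84.2, 129, 41.9 and 124 CPM in the YAP-M tumours, against 38.1 and 39.6 CPM in the NSC-YAP cells (log2 fold change 1.29, edgeR adjusted p = 0.00853), and tumour replicate 3 lay close to the cells. The Pax6 call was lost without either NSC-YAP library (edgeR adjusted p 0.0544 and 0.0520). The gliogenic factors Olig1 and Olig2 were far lower. Olig1 (chr16:91269772-91271933) had 23.2, 23.1, 44.8 and 35.8 CPM in the YAP-M tumours, against 1576 and 1503 CPM in the NSC-YAP cells. Olig2 (chr16:91225550-91228677) had 8.81, 14.8, 22.1 and 13.97 CPM in the YAP-M tumours, against 624 and 588 CPM in the NSC-YAP cells.

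Notch signalling passes between neighbouring cells, as DLL or JAG ligands on one cell activate NOTCH receptors on the next, and RBPJ with a MAML coactivator then switches on HES and HEY genes. Of 18 pathway genes, 8 were called lower (44.4%, beside 21.6% of all tested genes) and 5 higher. The median log2 fold change was -0.18. The ligand Dll3, which acts inside the cell as an inhibitor, had 0.295, 0.668, 0.94 and 0.966 CPM in the YAP-M tumours, against 231 and 206 CPM in the NSC-YAP cells (log2 fold change -8.25 ± 0.35 SE, edgeR adjusted p = 1.04e-08). Dll1, the ligand of neurogenic progenitors, had 1.22, 2.00, 2.48 and 1.64 CPM in the YAP-M tumours, against 93.7 and 93.7 CPM in the NSC-YAP cells. Both ligands were near or below 2 CPM in every tumour, apart from 2.48 CPM of Dll1 in replicate 3. The receptors Notch1 and Notch3 had 16.7 to 21.3 against 279.6 to 300.3 CPM and 10.1 to 12.8 against 206 to 215 CPM, and Notch2 (37.6 to 77.1 against 85.4 to 95.5 CPM) was not called. Hes5, the target whose promoter is printed above, had 0.184, 0.186, 0.128 and 0.186 CPM in the YAP-M tumours, against 84.03 and 81.6 CPM in the NSC-YAP cells (log2 fold change -8.87 ± 0.56 SE, edgeR adjusted p = 1.47e-07). The tumour values rest on 18 counts over the 4 libraries together, so Hes5 stood near the limit of detection in the tumours. Hes5 is counted with the radial glia markers and not among the 18 pathway genes. Nrarp, another target, had 1.29, 1.15, 1.75 and 0.669 CPM in the YAP-M tumours, against 38.9 and 37.3 CPM in the NSC-YAP cells. Hey1 had 20.2, 18.7, 18.7 and 19.9 CPM in the YAP-M tumours, against 129.9 and 122 CPM in the NSC-YAP cells.

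Of the 18 genes of the pathway 5 were called higher (27.8%, beside 28.9% of all tested genes). Heyl had 5.16, 5.01, 5.04 and 7.58 CPM in the YAP-M tumours, against 0 CPM in both NSC-YAP libraries, at least 93.4-fold higher by its counts. Dll4, the ligand of endothelial cells, had 4.24, 5.64, 5.30 and 3.05 CPM in the YAP-M tumours, against 1.43 and 1.31 CPM in the NSC-YAP cells, and Jag1 had 65.1 to 95.2 against 25.8 to 27.3 CPM and Hey2 6.31 to 11.97 against 1.51 to 1.79 CPM. Other central genes of the pathway did not meet both thresholds. Hes1 (18.9 to 31.1 against 36.1 to 38.6 CPM), Rbpj (95.7 to 132 against 82.7 to 84.4 CPM) and Maml1 (30.5 to 34.1 against 27.3 to 27.97 CPM) were not called. Among relatives of the fusion partner, Maml2 was called lower at 18.8, 24.6, 18.2 and 21.1 CPM in the YAP-M tumours, against 83.99 and 90.9 CPM in the NSC-YAP cells, and Maml3 higher at 5.47 to 7.09 against 1.51 to 1.67 CPM. The calls of Dll4 and Maml3 were lost after quantile normalization (log2 fold changes 0.60 and 0.93).

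**Figure D2:**
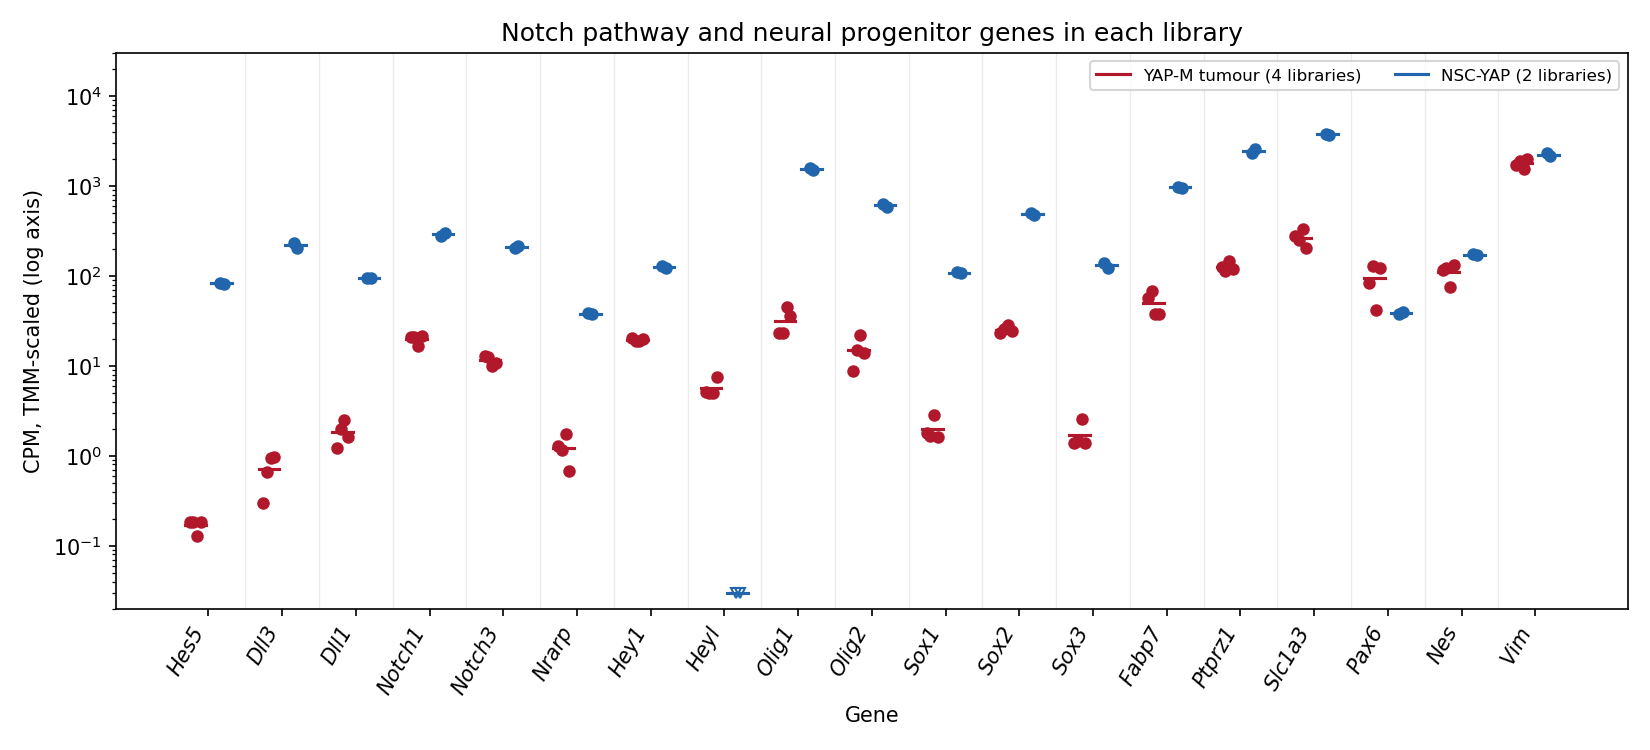
CPM (log axis) of Notch pathway genes (Hes5 to Heyl) and neural progenitor genes (Olig1 to Vim) in each library, with YAP-M tumours left of NSC-YAP cells, short lines at the group means and an open triangle for a library with no count. Hes5, Dll3, Olig1 and the Sox genes lie 1 or more orders of magnitude lower in the tumours, Heyl and Pax6 lie higher, and Nes and Vim lie close together.

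Genes of differentiated neural cells gave mixed results within each lineage. Of 17 neuronal genes 13 were called higher and 3 lower (76.5% and 17.6%), beside 28.9% and 21.6% of all tested genes. Stmn2, a microtubule regulator of neurons, had 72.9, 67.2, 56.3 and 74.1 CPM in the YAP-M tumours, against 0 and 0.0408 CPM in the NSC-YAP cells. Dcx, of migrating neuroblasts, had 4.79, 5.68, 5.81 and 5.69 CPM in the YAP-M tumours, against 52.3 and 58.5 CPM in the NSC-YAP cells. Map2 had 111, 79.8, 125 and 157 CPM in the YAP-M tumours, against 655 and 721 CPM in the NSC-YAP cells. Of 13 oligodendrocyte genes 8 were called higher and 3 lower (61.5% and 23.1%). The members that were lower were Olig1, Olig2 and Cspg4. The myelin genes Mbp and Mobp were higher. Mbp had 343, 334, 794 and 1432 CPM in the YAP-M tumours, against 2.85 and 2.41 CPM in the NSC-YAP cells. Mobp had 67.3, 62.6, 213 and 452 CPM in the YAP-M tumours, against 0.489 and 0.408 CPM in the NSC-YAP cells. The myelin values of tumour replicate 4 were the highest and those of replicate 3 the second highest in both genes. The part of host brain tissue in these transcripts was not tested.

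Astrocyte genes divided too, with 5 called higher and 3 lower of 10 (50% and 30%), beside 28.9% and 21.6% of all tested genes. Gfap, the filament of mature and reactive astrocytes, had 1328, 1030.1, 1061 and 1602 CPM in the YAP-M tumours, against 10.6 and 11.8 CPM in the NSC-YAP cells (log2 fold change 6.80 ± 0.53 SE, edgeR adjusted p = 6.94e-07). Aqp4, the water channel of astrocyte endfeet, had 384, 293, 192 and 484 CPM in the YAP-M tumours, against 2.69 and 3.19 CPM in the NSC-YAP cells. Gja1, connexin 43, had 127, 97.3, 128 and 155 CPM in the YAP-M tumours, against 1.83 and 2.29 CPM in the NSC-YAP cells. These genes mark mature or reactive astrocytes, and all tumours were far above the NSC-YAP cells. Aldoc, a metabolic enzyme of astrocytes, was called lower with 111, 88.1, 125 and 187 CPM in the YAP-M tumours, against 1497 and 1484 CPM in the NSC-YAP cells. Fgfr3 was called lower with 37.7, 31.5, 38.2 and 47.5 CPM in the YAP-M tumours, against 405 and 407 CPM in the NSC-YAP cells. Of 20 genes of multiciliated ependymal cells, which line the mature ventricle, 9 were called higher and 7 lower (45% and 35%). Their summed level was 79.3 to 88.5 CPM in the YAP-M tumours, against 143 to 156 CPM in the NSC-YAP cells. Foxj1, the master regulator of motile cilia, had 11.2, 8.20, 13.6 and 18.4 CPM in the YAP-M tumours, against 37.3 and 37.6 CPM in the NSC-YAP cells (log2 fold change -1.55, edgeR adjusted p = 0.00499). Rfx3 had 6.45, 5.01, 6.02 and 6.84 CPM in the YAP-M tumours, against 57.2 and 66.1 CPM in the NSC-YAP cells, and the members called higher were low, with Dnah11 at 2.94 to 6.01 against 0.0408 CPM and Spag6l at 1.19 to 2.51 CPM in tumours and 0 in the cells. Mcidas, which starts the multiciliated programme, was at 0 to 0.147 CPM in the tumours and 0 in the cells and was not tested.

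Positional identity differed. HOX genes encode the position along the body axis caudal to the forebrain, in 4 clusters. All 9 HoxB genes, all 7 HoxC genes and all 6 HoxD genes that passed the filter on low counts were called higher, beside 28.9% of all tested genes. None of the HoxB and HoxC genes had a count in either NSC-YAP library. With genes without NSC-YAP counts set at their lower bounds, the median log2 fold changes were 4.78, 4.03 and 6.98. A gene absent from the NSC-YAP cells passes this filter only through other libraries, so these counts describe the genes that passed, and Hoxb2 and Hoxb3 stayed at or below 0.445 CPM in every tumour. The call of Hoxb2 was lost in each fit that left out 1 library other than tumour replicate 2 (edgeR adjusted p 0.0755 to 0.136), and its fold change was below 0 after quantile normalization. After quantile normalization the calls of Hoxb3 (log2 fold change 0.10, limma adjusted p = 0.788) and of 2 HoxC genes (log2 fold changes 0.99 and 0.75) were lost too. With the 0.5 CPM added there, genes at or below 0.445 CPM could hardly reach 2-fold, so that setting cannot judge Hoxb2 and Hoxb3. Hoxd13 (chr2:74668310-74671599), the most caudal HoxD gene, had 64.4, 88.8, 72.2 and 41.5 CPM in the YAP-M tumours, against 0.0408 and 0 CPM in the NSC-YAP cells, 3262-fold higher (95% counting interval 585 to 128900). The 1 NSC-YAP count of Hoxd13 leaves the size of its difference uncertain within that interval. Hoxd10 had 9.77, 11.02, 8.24 and 6.06 CPM in the YAP-M tumours, against 0 CPM in both NSC-YAP libraries. Hoxd8 had 14.7, 17.03, 15.5 and 7.69 CPM in the YAP-M tumours, against 0.204 and 0.123 CPM in the NSC-YAP cells. Of the HoxB genes, the most caudal had the highest tumour value. Hoxb13 had 3.91, 9.09, 5.77 and 5.83 CPM in the YAP-M tumours, against 0 CPM in both NSC-YAP libraries. Hoxb4 had 3.94, 5.45, 5.34 and 3.46 CPM in the YAP-M tumours, against 0 CPM in both NSC-YAP libraries. The HoxC genes were low, with none of the tested ones above 2.73 CPM in any tumour.

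The HoxA cluster split along its length. Of 10 tested, 3 were called higher and 4 lower (30% and 40%), beside 28.9% and 21.6% of all tested genes. The lower ones were Hoxa2 to Hoxa5. Hoxa2 had 0.59, 0.631, 0.641 and 0.483 CPM in the YAP-M tumours, against 4.24 and 4.57 CPM in the NSC-YAP cells. Hoxa3 had 0.258, 0.779, 1.03 and 1.04 CPM in the YAP-M tumours, against 12.4 and 11.4 CPM in the NSC-YAP cells. Hoxa4 had 0.516 to 1.00 against 6.25 to 8.03 CPM. Hoxa5 had 3.91, 4.04, 5.68 and 4.24 CPM in the YAP-M tumours, against 28.3 and 26.1 CPM in the NSC-YAP cells. The tumour values of these 4 genes lay below both NSC-YAP libraries throughout. Its caudal genes were called higher, with Hoxa9 at 3.34 to 4.53 against 0.0408 to 0.122 CPM. Hoxa10 had 12.6, 12.02, 9.18 and 8.62 CPM in the YAP-M tumours, against 1.79 and 0.858 CPM in the NSC-YAP cells. Hoxa11 had 3.65, 2.67, 3.12 and 1.52 CPM in the YAP-M tumours, against 0 CPM in both NSC-YAP libraries. The calls of Hoxa10 and Hoxa11 were lost without NSC-YAP replicate 2 (edgeR adjusted p 0.0989 and 0.0513), which left Hoxa9. Hoxa7 (1.71 to 2.32 against 1.51 to 1.55 CPM) and Hoxa13 (0.818 to 1.67 against 0.694 to 1.06 CPM) were not called. Meis1, a cofactor of HOX proteins, was called lower with 2.80, 6.35, 4.66 and 4.68 CPM in the YAP-M tumours, against 42.5 and 42.3 CPM in the NSC-YAP cells.

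Forebrain factors were present in both groups, with 10 called higher and 7 lower of 21 (47.6% and 33.3%). Among all tested genes 28.9% were called higher and 21.6% lower. Fewer forebrain factors were called higher without NSC-YAP replicate 1. Lhx6, of the ventral telencephalon, had 43.6, 30.4, 34.6 and 24.8 CPM in the YAP-M tumours, against 0.408 and 0.204 CPM in the NSC-YAP cells. Nr2f2 had 38.9, 37.6, 41.8 and 57.8 CPM in the YAP-M tumours, against 0 and 0.0817 CPM in the NSC-YAP cells. Its relative Nr2f1 was called lower at 6.89, 7.46, 7.99 and 18.9 CPM in the YAP-M tumours, against 126 and 126 CPM in the NSC-YAP cells. Of 16 midbrain, hindbrain and spinal factors, 5 were called higher and 6 lower (31.2% and 37.5%). Pax3, of the dorsal neural tube and crest, had 29.1, 35.9, 17.00 and 36.3 CPM in the YAP-M tumours, against 0 CPM in both NSC-YAP libraries, at least 490.4-fold higher, while Irx3, Irx5 and En2 were called lower at 1.82 to 4.09 against 23.5 to 25.8 CPM, 0.405 to 2.60 against 16.6 to 19.5 CPM and 1.24 to 2.32 against 10.2 to 11.1 CPM. Without tumour replicate 4 the log2 fold change of Irx5 was -4.85, against -4.02 with it.

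Imprinted and fetal growth genes were among the largest differences. Of 11 oncofetal genes 9 were called higher and 2 lower (81.8% and 18.2%), beside 28.9% and 21.6% of all tested genes. Igf2 (chr7:142650766-142666816), the fetal growth factor, had 3345, 3157, 2146 and 2830.0 CPM in the YAP-M tumours, against 0.856 and 1.39 CPM in the NSC-YAP cells (log2 fold change 11.31 ± 0.48 SE, edgeR adjusted p = 1.04e-08). H19, the noncoding RNA of the same imprinted locus, had 170.2, 333, 216 and 235 CPM in the YAP-M tumours, against 0.245 and 0.245 CPM in the NSC-YAP cells. Meg3, of the imprinted Dlk1 locus, had 239, 165, 313 and 329.9 CPM in the YAP-M tumours, against 0.122 and 0.0408 CPM in the NSC-YAP cells. In the NSC-YAP cells these 3 genes stayed below 1.5 CPM. Rian, a further RNA of the Meg3 transcript region, had 260.0, 202, 234 and 248 CPM in the YAP-M tumours, against 0 CPM in both NSC-YAP libraries, at least 3859-fold higher. Peg10, an imprinted gene of retrotransposon origin, had 2328, 2428, 2602 and 1709 CPM in the YAP-M tumours, against 47.2 and 54.4 CPM in the NSC-YAP cells (log2 fold change 5.48, edgeR adjusted p = 2.67e-07). Cdkn1c, an imprinted CDK inhibitor, had 297, 244, 393 and 259 CPM in the YAP-M tumours, against 8.64 and 7.84 CPM in the NSC-YAP cells. Of the imprinted genes named here, 1 was lower in the tumours. Dlk1 was called lower, with 12.9, 10.8, 21.4 and 8.10 CPM in the YAP-M tumours, against 32.4 and 28.99 CPM in the NSC-YAP cells, a call that was lost without tumour replicate 4 (log2 fold change -0.99).

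The RNA-binding proteins of this group were higher too. Igf2bp1 had 45.7, 45.6, 73.4 and 24.8 CPM in the YAP-M tumours, against 0.0408 and 0 CPM in the NSC-YAP cells. Igf2bp3 had 33.1 to 51.8 against 5.79 to 6.33 CPM. Lin28b had 11.9, 7.76, 18.6 and 5.91 CPM in the YAP-M tumours, against 0 CPM in both NSC-YAP libraries. Hmga2 had 236, 222, 198 and 146 CPM in the YAP-M tumours, against 11.3 and 12.9 CPM in the NSC-YAP cells. Its relative Hmga1 was called lower with 66.9, 78.00, 80.4 and 76.2 CPM in the YAP-M tumours, against 373 and 358 CPM in the NSC-YAP cells. The HMGA genes, which encode architectural chromatin proteins, thus differed in opposite directions. Of 14 pluripotency genes 7 were tested, of which 5 were called higher and 2 lower (71.4% and 28.6%), beside 28.9% and 21.6% of all tested genes. Of the 7 tested, 3 had no count in the NSC-YAP cells. Such genes pass the filter on low counts only through other libraries, so these shares describe the genes that passed. The higher calls numbered 3 without tumour replicate 3, and the lower calls 1 without either NSC-YAP library. Pou5f1, a core pluripotency factor, was not tested and had 0 to 0.258 CPM in the tumours and 0 in the cells. The members called higher include Klf4 and Tfcp2l1, which many differentiated tissues also express. Klf4 had 165, 155, 145 and 97.8 CPM in the YAP-M tumours, against 8.48 and 10.5 CPM in the NSC-YAP cells. Tfcp2l1 had 23.3, 20.9, 28.3 and 7.47 CPM in the YAP-M tumours, against 0.367 and 0.408 CPM in the NSC-YAP cells. Of 11 genes of the IGF axis, 4 were called higher and 1 lower, beside 28.9% and 21.6% of all tested genes. The receptor Igf1r (127 to 183 against 109 to 126 CPM) was not called, and the decoy receptor Igf2r was called higher at 108 to 204 against 32.5 to 34.7 CPM. Igfbp5, a binding protein, was called lower with 109.6, 108, 56.9 and 117 CPM in the YAP-M tumours, against 766 and 803 CPM in the NSC-YAP cells.

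Of 22 ligands, receptors, antagonists and other genes of the TGF-beta family, 13 were called higher and 4 lower, beside 28.9% and 21.6% of all tested genes. Inhba, the activin A subunit, had 216, 244, 103 and 321 CPM in the YAP-M tumours, against 0 CPM in both NSC-YAP libraries, at least 3675-fold higher. Bmp4 had 226, 249, 202 and 215 CPM in the YAP-M tumours, against 0.0815 and 0.123 CPM in the NSC-YAP cells (log2 fold change 11.02 ± 0.24 SE, edgeR adjusted p = 9.15e-10). Both were at or near 0 in culture and above 100 CPM in every tumour. Of the ligands and receptors of TGF-beta, Tgfb1 had 56.7 to 74.8 against 2.25 to 2.65 CPM, Tgfb3 166 to 321 against 12.8 to 14.3 CPM and Tgfbr2 236 to 366 against 6.49 to 7.14 CPM. The feedback inhibitor Smad7 had 42.3 to 56.2 against 8.77 to 9.96 CPM and the BMP antagonist Nog 55.7 to 87.98 against 6.69 to 7.35 CPM. Called lower were Bmp7 (9.74 to 23.9 against 66.7 to 72.8 CPM), Bmpr1b (10.8 to 13.8 against 36.9 to 38.3 CPM), Chrdl1 (5.17 to 13.1 against 27.4 to 30.1 CPM) and Inhbb (22.6 to 32.1 against 59.9 to 62.1 CPM). The Inhbb change (log2 fold change -1.15, edgeR adjusted p = 0.00145) lay near the limit of 2-fold, and its call was lost with a replicate block (log2 fold change -0.997).

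In the EGF, FGF, MET and PDGF axis, 12 of 24 were called higher and 5 lower (50% and 20.8%). The shares over all tested genes were 28.9% and 21.6%. Ligands of the EGF receptor family differed by gene: Ereg had 15.8, 19.1, 16.4 and 29.8 CPM in the YAP-M tumours, against 0 CPM in both NSC-YAP libraries. Nrg1 had 98.2, 118, 70.3 and 80.9 CPM in the YAP-M tumours, against 2.53 and 3.31 CPM in the NSC-YAP cells. Tgfa was called lower at 17.3, 18.5, 17.6 and 20.8 CPM in the YAP-M tumours, against 42.7 and 42.2 CPM in the NSC-YAP cells. The EGF family ligands therefore did not share a direction. Pdgfb had 36.04, 39.1, 44.8 and 41.9 CPM in the YAP-M tumours, against 0.571 and 0.735 CPM in the NSC-YAP cells (log2 fold change 5.94, edgeR adjusted p = 1.87e-09). Epha2 had 72.3, 64.1, 78.8 and 68.2 CPM in the YAP-M tumours, against 2.08 and 2.16 CPM in the NSC-YAP cells. Met had 135, 165, 92.7 and 126 CPM in the YAP-M tumours, against 9.99 and 9.51 CPM in the NSC-YAP cells. For all 3 the NSC-YAP cells stayed below 10 CPM. Among receptors for FGFs, Fgfr1 was called lower, with 65.6, 66.3, 51.7 and 97.5 CPM in the YAP-M tumours, against 319 and 319 CPM in the NSC-YAP cells. Fgfr2 was called higher, with 152, 171, 146 and 127 CPM in the YAP-M tumours, against 30.5 and 28.5 CPM in the NSC-YAP cells. The receptors for FGFs were thus opposite in direction. Spry4 and Spry2, feedback inhibitors induced by ERK signalling, were called lower at 7.62 to 9.76 against 30.7 to 32.7 CPM and 32.8 to 58.2 against 111 to 115 CPM.

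Wnt and hedgehog genes were called lower in 9 and higher in 6 of 21 (42.9% and 28.6%), beside 21.6% lower and 28.9% higher among all tested genes. Wnt7b had 51.7, 51.2, 72.6 and 29.5 CPM in the YAP-M tumours, against 454 and 432 CPM in the NSC-YAP cells. Axin2, a target of canonical Wnt signalling, had 5.82, 7.24, 6.71 and 9.44 CPM in the YAP-M tumours, against 25.8 and 28.01 CPM in the NSC-YAP cells, and the receptor gene Fzd9 had 2.84, 0.853, 2.39 and 3.31 CPM in the YAP-M tumours, against 67.8 and 67.3 CPM in the NSC-YAP cells. These Wnt genes were lower in every tumour. Ptch1, a target of hedgehog signalling, had 51.6, 52.8, 52.02 and 38.6 CPM in the YAP-M tumours, against 271 and 289 CPM in the NSC-YAP cells. Gli1, another target, had 0.147, 0.0742, 0.214 and 0.372 CPM in the YAP-M tumours, against 1.18 and 0.898 CPM in the NSC-YAP cells. The hedgehog targets were lower as well, Gli1 at levels near the floor of detection. Gli2 had 0.631 to 1.23 against 12.7 to 12.8 CPM. Gli3, the main repressor of the pathway, had 29.8, 28.7, 23.8 and 24.3 CPM in the YAP-M tumours, against 0.856 and 0.98 CPM in the NSC-YAP cells. Dkk3 had 74.4, 58.2, 55.5 and 50.1 CPM in the YAP-M tumours, against 0.122 and 0.204 CPM in the NSC-YAP cells.

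Most marker genes of microglia and macrophages, vessels and blood cells were higher in the tumours. Whether host or tumour cells expressed them was not tested. All 18 microglia and macrophage genes were called higher, beside 28.9% of all tested genes. Their summed level was 3613 to 5310 CPM in the YAP-M tumours, against 43.3 to 45.9 CPM in the NSC-YAP cells. Ctss, a lysosomal protease, had 1028, 1071, 764 and 1152 CPM in the YAP-M tumours, against 0.122 and 0.204 CPM in the NSC-YAP cells. Csf1r, the receptor for the growth factor CSF1, had 408, 447, 373 and 477 CPM in the YAP-M tumours, against 0.0408 and 0.408 CPM in the NSC-YAP cells. The defining genes were near 0 in culture. C1qa had 540.0, 634, 505 and 699 CPM in the YAP-M tumours, against 0.122 and 0.368 CPM in the NSC-YAP cells. Cx3cr1 had 159, 159, 109 and 142 CPM in the YAP-M tumours, against 0 and 0.0817 CPM in the NSC-YAP cells. All 14 endothelial and pericyte genes were called higher. Cldn5, of the brain endothelium, had 47.98, 54.5, 60.3 and 34.6 CPM in the YAP-M tumours, against 0 CPM in both NSC-YAP libraries. Pecam1 had 36.4, 34.2, 37.7 and 26.8 CPM in the YAP-M tumours, against 0.408 and 0.245 CPM in the NSC-YAP cells. Blood cell genes summed to 292 to 643 CPM in the YAP-M tumours, against 2.16 to 2.73 CPM in the NSC-YAP cells. Ptprc, present on all leukocytes, had 54.5, 58.6, 38.5 and 64.5 CPM in the YAP-M tumours, against 0.0408 and 0 CPM in the NSC-YAP cells, while the T cell genes Cd3e and Cd8a and the B cell gene Ms4a1 were between 0 and 0.372 CPM in the tumours and were not tested.

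Choroid plexus genes differed between tumours, though not all in the same way. Ttr, the main secreted protein of the choroid plexus, had 259, 1.74, 0.683 and 218 CPM in the YAP-M tumours, against 0 and 0.0408 CPM in the NSC-YAP cells, so replicates 1 and 4 were high and replicates 2 and 3 near the cells. The Ttr call (edgeR adjusted p = 0.0207) was lost without either NSC-YAP library. Clic6 followed the same split, with 5.31, 1.86, 1.71 and 4.46 CPM in the YAP-M tumours. Folr1, with 30.7, 18.5, 39.1 and 18.7 CPM, and Aqp1, with 17.4, 11.5, 17.1 and 9.59 CPM, did not. Of 8 choroid plexus genes 6 were called higher (75%, beside 28.9% of all tested genes), a number that fell without either NSC-YAP library.

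**Figure D3:**
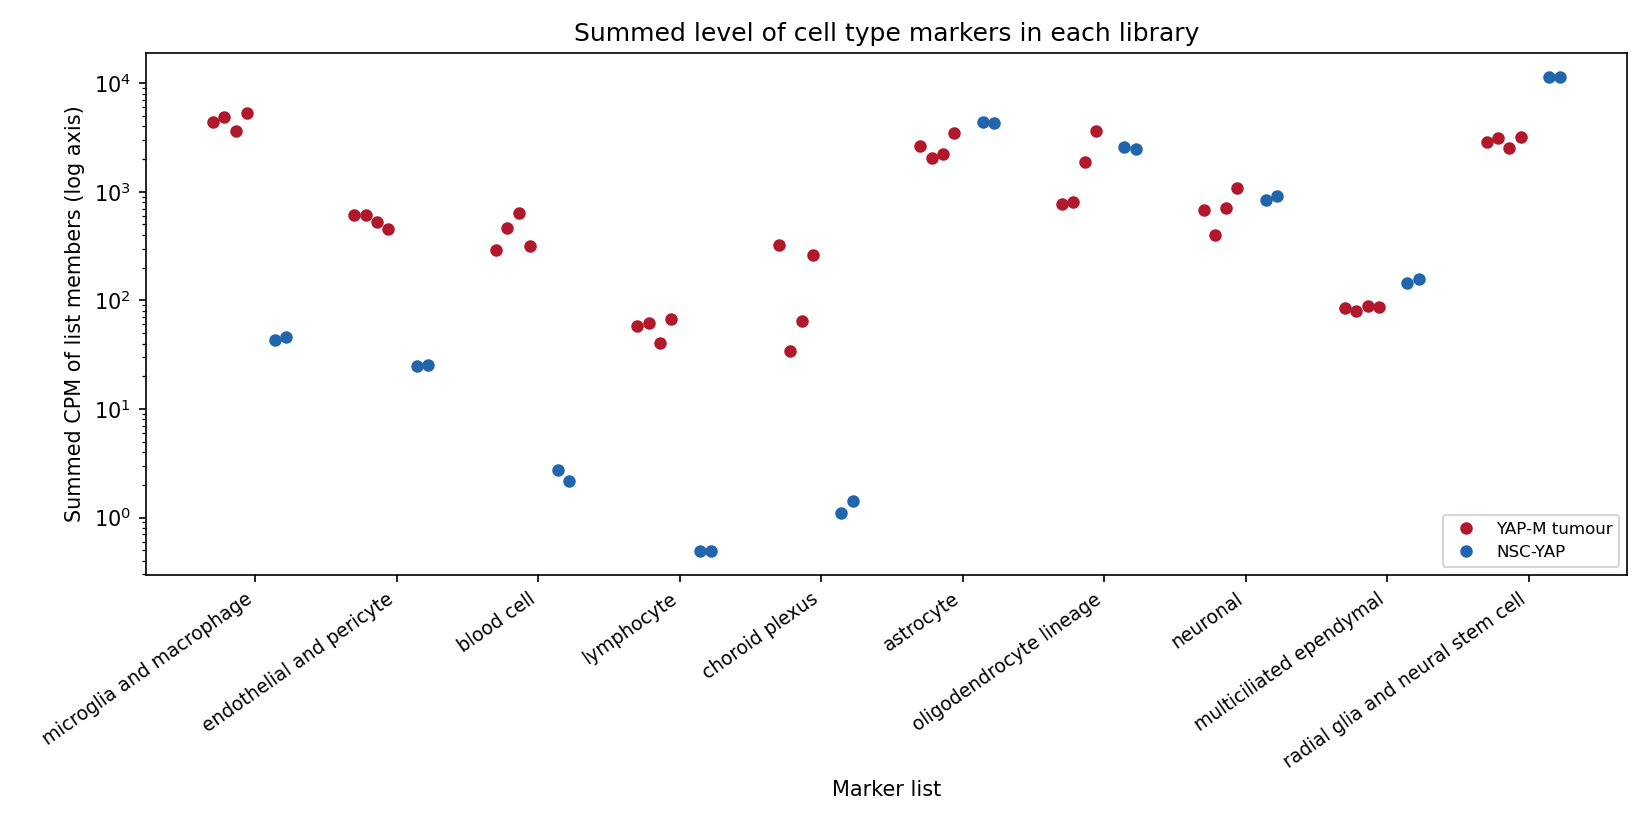
Summed CPM (log axis) of the members of each cell type marker list in each library, with the 4 YAP-M tumours left of the 2 NSC-YAP libraries. Microglia and macrophage markers sum to 3613 to 5310 CPM in the tumours and 43.3 to 45.9 CPM in the cells, and radial glia and neural stem cell markers sum to 2535 to 3173 CPM in the tumours and 11390 to 11460 CPM in the cells.

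Most genes of immune signals were higher in the tumours too. Of 17 chemokine and cytokine genes, 15 were called higher and 2 lower (88.2% and 11.8%), beside 28.9% and 21.6% of all tested genes. Csf1, the growth factor of macrophages, had 391, 395, 324 and 447 CPM in the YAP-M tumours, against 37.6 and 38.8 CPM in the NSC-YAP cells (log2 fold change 3.35, edgeR adjusted p = 3.95e-08). Il6, an inflammatory cytokine, had 28.7, 21.4, 37.1 and 11.7 CPM in the YAP-M tumours, against 0 CPM in both NSC-YAP libraries, at least 398-fold higher. A chemokine likewise had no count in culture. Cxcl1, which attracts neutrophils, had 12.7, 13.6, 13.7 and 11.4 CPM in the YAP-M tumours, against 0 CPM in both NSC-YAP libraries. Lif had 14.3, 15.03, 14.1 and 15.8 CPM in the YAP-M tumours, against 0.856 and 0.653 CPM in the NSC-YAP cells. Called lower were Cx3cl1 and Il33. Cx3cl1, the ligand of the microglial receptor gene Cx3cr1, had 40.6, 22.97, 36.6 and 46.7 CPM in the YAP-M tumours, against 112 and 113 CPM in the NSC-YAP cells. Il33 had 3.98, 2.93, 7.22 and 6.28 CPM in the YAP-M tumours, against 25.9 and 22.8 CPM in the NSC-YAP cells. Of 25 genes of the interferon response and antigen presentation, 21 were called higher (84%) and 0 lower. The MHC class I gene H2-D1 had 523, 592, 536 and 571 CPM in the YAP-M tumours, against 6.16 and 6.78 CPM in the NSC-YAP cells. B2m, its partner, had 531, 664, 519 and 751 CPM in the YAP-M tumours, against 159.7 and 158 CPM in the NSC-YAP cells. Class I genes were thus expressed in both groups. The MHC class II genes, which antigen-presenting cells express, were near 0 in the cells, with Cd74 at 110.4, 235, 94.7 and 226 CPM in the YAP-M tumours, against 0.0815 and 0.98 CPM in the NSC-YAP cells. H2-Aa had 60.4, 109, 32.97 and 98.6 CPM in the YAP-M tumours, against 0.0815 and 0.368 CPM in the NSC-YAP cells. Tumour replicates 2 and 4 were the higher ones in both class II genes. The microglia and macrophage sums given above were also higher in the tumours, unlike Cx3cl1 and Il33. The part of microglia and macrophages in these differences was not tested.

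Few proliferation genes were called. Of 22 cell cycle genes 18 were not called, 4 were called higher and 0 lower, beside 28.9% and 21.6% of all genes. Mki67 had 219.9, 215, 176 and 153 CPM in the YAP-M tumours, against 165 and 191 CPM in the NSC-YAP cells, Top2a 99.9 to 146 against 195 to 196 CPM and Pcna 103 to 120.1 against 90.7 to 98.5 CPM. Called higher were Ccne1, with 77.6, 88.4, 80.3 and 41.6 CPM in the YAP-M tumours, against 11.6 and 9.80 CPM in the NSC-YAP cells, Ccnb2 (18.8 to 33.6 against 5.23 to 5.46 CPM), Rrm2 (118 to 209 against 38.3 to 40.9 CPM) and E2f1 (17.1 to 28.3 against 9.47 to 9.70 CPM). Of 12 genes of cyclins D, CDKs and CDK inhibitors, 2 were called higher and 6 lower (16.7% and 50%). Cdk6 had 177, 171, 138 and 152 CPM in the YAP-M tumours, against 10.2 and 11.3 CPM in the NSC-YAP cells (log2 fold change 3.89 ± 0.20 SE, edgeR adjusted p = 3.08e-08). Cdk4 had 179, 209.9, 182 and 193 CPM in the YAP-M tumours, against 405 and 392 CPM in the NSC-YAP cells, Ccnd1 74.2 to 107 against 178 to 179 CPM and Ccnd2 87.7 to 150.3 against 288 to 309 CPM. The kinase genes Cdk4 and Cdk6, which both bind cyclins D, differed in opposite directions. Cdk4 was at the 2-fold limit (log2 fold change -1.06, edgeR adjusted p = 2.62e-06) and lost its call under 4 other settings and without tumour replicate 1 or 3 (edgeR adjusted p 3.41e-05 and 2.55e-05, with a change just under 2-fold). Ccnd1 (log2 fold change -1.04, edgeR adjusted p = 0.000363) was just short of 2-fold under 6 other settings and without tumour replicate 1, 3 or 4. The inhibitor Cdkn2a, a tumour suppressor locus, had 44.5, 38.2, 42.2 and 35.4 CPM in the YAP-M tumours, against 144 and 132 CPM in the NSC-YAP cells, and Cdkn1b 80.6 to 91.5 against 217 to 220.3 CPM. Of 12 p53 targets and regulators, 2 were called higher and 2 lower (16.7% each). Trp53 itself had 129, 138, 132 and 120.2 CPM in the YAP-M tumours, against 30.7 and 32.1 CPM in the NSC-YAP cells. The apoptosis genes Pmaip1 and Bbc3 had 15.1 to 27.04 against 0.204 to 0.326 CPM and 5.75 to 9.61 against 37.1 to 37.7 CPM.

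Among MYC network genes, 5 of 12 were called lower (41.7%) and 0 higher, beside 21.6% and 28.9% of all tested genes. Mycl had 3.21, 2.86, 6.15 and 7.77 CPM in the YAP-M tumours, against 82.97 and 81.2 CPM in the NSC-YAP cells, and the MYC antagonists Mxi1 and Mxd4 had 42.1 to 43.7 against 165 to 179.6 CPM and 70.1 to 71.5 against 175 to 177 CPM. Myc was not called (112, 130.1, 125 and 107 CPM in the YAP-M tumours, against 75.6 and 77.95 CPM in the NSC-YAP cells).

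Genes of sterol and fatty acid synthesis were lower in the tumours. Of 18 tested, 15 were called lower and 1 higher (median log2 fold change -1.71), beside 21.6% and 28.9% of all tested genes. Srebf2, the factor that switches on sterol synthesis, had 64.1, 71.6, 57.96 and 85.7 CPM in the YAP-M tumours, against 638 and 650.5 CPM in the NSC-YAP cells (log2 fold change -3.21 ± 0.16 SE, edgeR adjusted p = 2.3e-08). Hmgcs1, an early enzyme of the pathway, had 119, 116, 109.5 and 167 CPM in the YAP-M tumours, against 821 and 823 CPM in the NSC-YAP cells. Insig1, its feedback regulator, had 36.4, 49.9, 33.7 and 60.7 CPM in the YAP-M tumours, against 272 and 256 CPM in the NSC-YAP cells. These 3 genes were highest in tumour replicate 4 among the tumours, and still below the NSC-YAP cells. Scd2, a desaturase of the brain, had 462, 408, 454 and 714 CPM in the YAP-M tumours, against 5933 and 5929.9 CPM in the NSC-YAP cells. The list summed to 1521 to 2109 CPM in the YAP-M tumours, against 9945 to 9949 CPM in the NSC-YAP cells.

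Most genes of glycolysis and hypoxia were lower too, with 11 called lower and 3 higher of 20 (55% and 15%). The shares over all tested genes were 21.6% and 28.9%. Gapdh had 1500.1, 1776, 1303 and 1736 CPM in the YAP-M tumours, against 6072 and 5884 CPM in the NSC-YAP cells. Pgk1 had 325, 438, 304 and 376 CPM in the YAP-M tumours, against 1606 and 1487 CPM in the NSC-YAP cells. Hk1 had 113, 114, 118 and 128 CPM in the YAP-M tumours, against 541 and 547 CPM in the NSC-YAP cells. The hypoxia targets Vegfa and Pdk1 were called lower, with 184 to 256 against 871 to 982 CPM and 36.5 to 51.4 against 184 to 197 CPM. In each of these 5 genes the tumours were below both NSC-YAP libraries. The 3 genes called higher included another hypoxia target. Car9, a carbonic anhydrase, had 7.33, 10.2, 3.67 and 10.3 CPM in the YAP-M tumours, against 0.245 and 0.163 CPM in the NSC-YAP cells (log2 fold change 5.24, edgeR adjusted p = 8.02e-06). Pfkp, a phosphofructokinase, had 73.3, 91.99, 70.9 and 87.3 CPM in the YAP-M tumours, against 10.6 and 10.9 CPM in the NSC-YAP cells. The glucose transporter gene Slc2a3 had 415, 329.9, 632 and 216 CPM in the YAP-M tumours, against 93.2 and 92.8 CPM in the NSC-YAP cells, while Slc2a1 was not called (226 to 390.2 against 279.8 to 293 CPM). Of 14 genes that ATF4 induces in the amino acid response, 9 were called lower (64.3%) and 0 higher. Phgdh, the first enzyme of serine synthesis, had 115, 121, 98.2 and 133 CPM in the YAP-M tumours, against 445 and 416 CPM in the NSC-YAP cells. Ddit4 had 29.7, 24.4, 28.5 and 43.97 CPM in the YAP-M tumours, against 260.2 and 238 CPM in the NSC-YAP cells.

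Few genes of transcriptional coactivators were called, beside 28.9% higher and 21.6% lower among all tested genes. Of 16 genes of this list, which holds the Mediator and BET proteins often found in condensates, 14 were not called, 1 (Kat2b, 38.6 to 47.1 against 18.3 to 22.3 CPM) was called higher and 1 (Med12, 26.7 to 29.8 against 72.5 to 82.3 CPM) lower. Ep300, a histone acetyltransferase, had 80.2, 93.96, 88.8 and 89.6 CPM in the YAP-M tumours, against 142 and 157 CPM in the NSC-YAP cells. The Kat2b call was lost without NSC-YAP replicate 2 (log2 fold change 0.92). Of 17 genes of Polycomb and DNA methylation, 7 were called lower and 1 higher (41.2% and 5.88%). The canonical PRC1 chromodomain genes Cbx8 and Cbx2 had 3.72 to 4.66 against 27.7 to 28.3 CPM and 3.72 to 5.91 against 19.6 to 21.4 CPM. Tet1, which oxidises methylated cytosine, had 2.36, 1.89, 2.01 and 4.27 CPM in the YAP-M tumours, against 28.9 and 30.99 CPM in the NSC-YAP cells. The core PRC2 genes were not called. They were Ezh2 (43.1 to 59.4 against 45.2 to 47.8 CPM), Eed (25.8 to 30.7 against 21.7 to 23.03 CPM) and Suz12 (73.4 to 85.6 against 53.9 to 55.7 CPM). The gene called higher was Dnmt3b, with 17.4, 6.68, 27.8 and 3.72 CPM in the YAP-M tumours, against 3.26 and 4.78 CPM in the NSC-YAP cells, whose groups overlapped and whose call was lost without tumour replicate 1 or 3 or either NSC-YAP library.

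**Figure D4:**
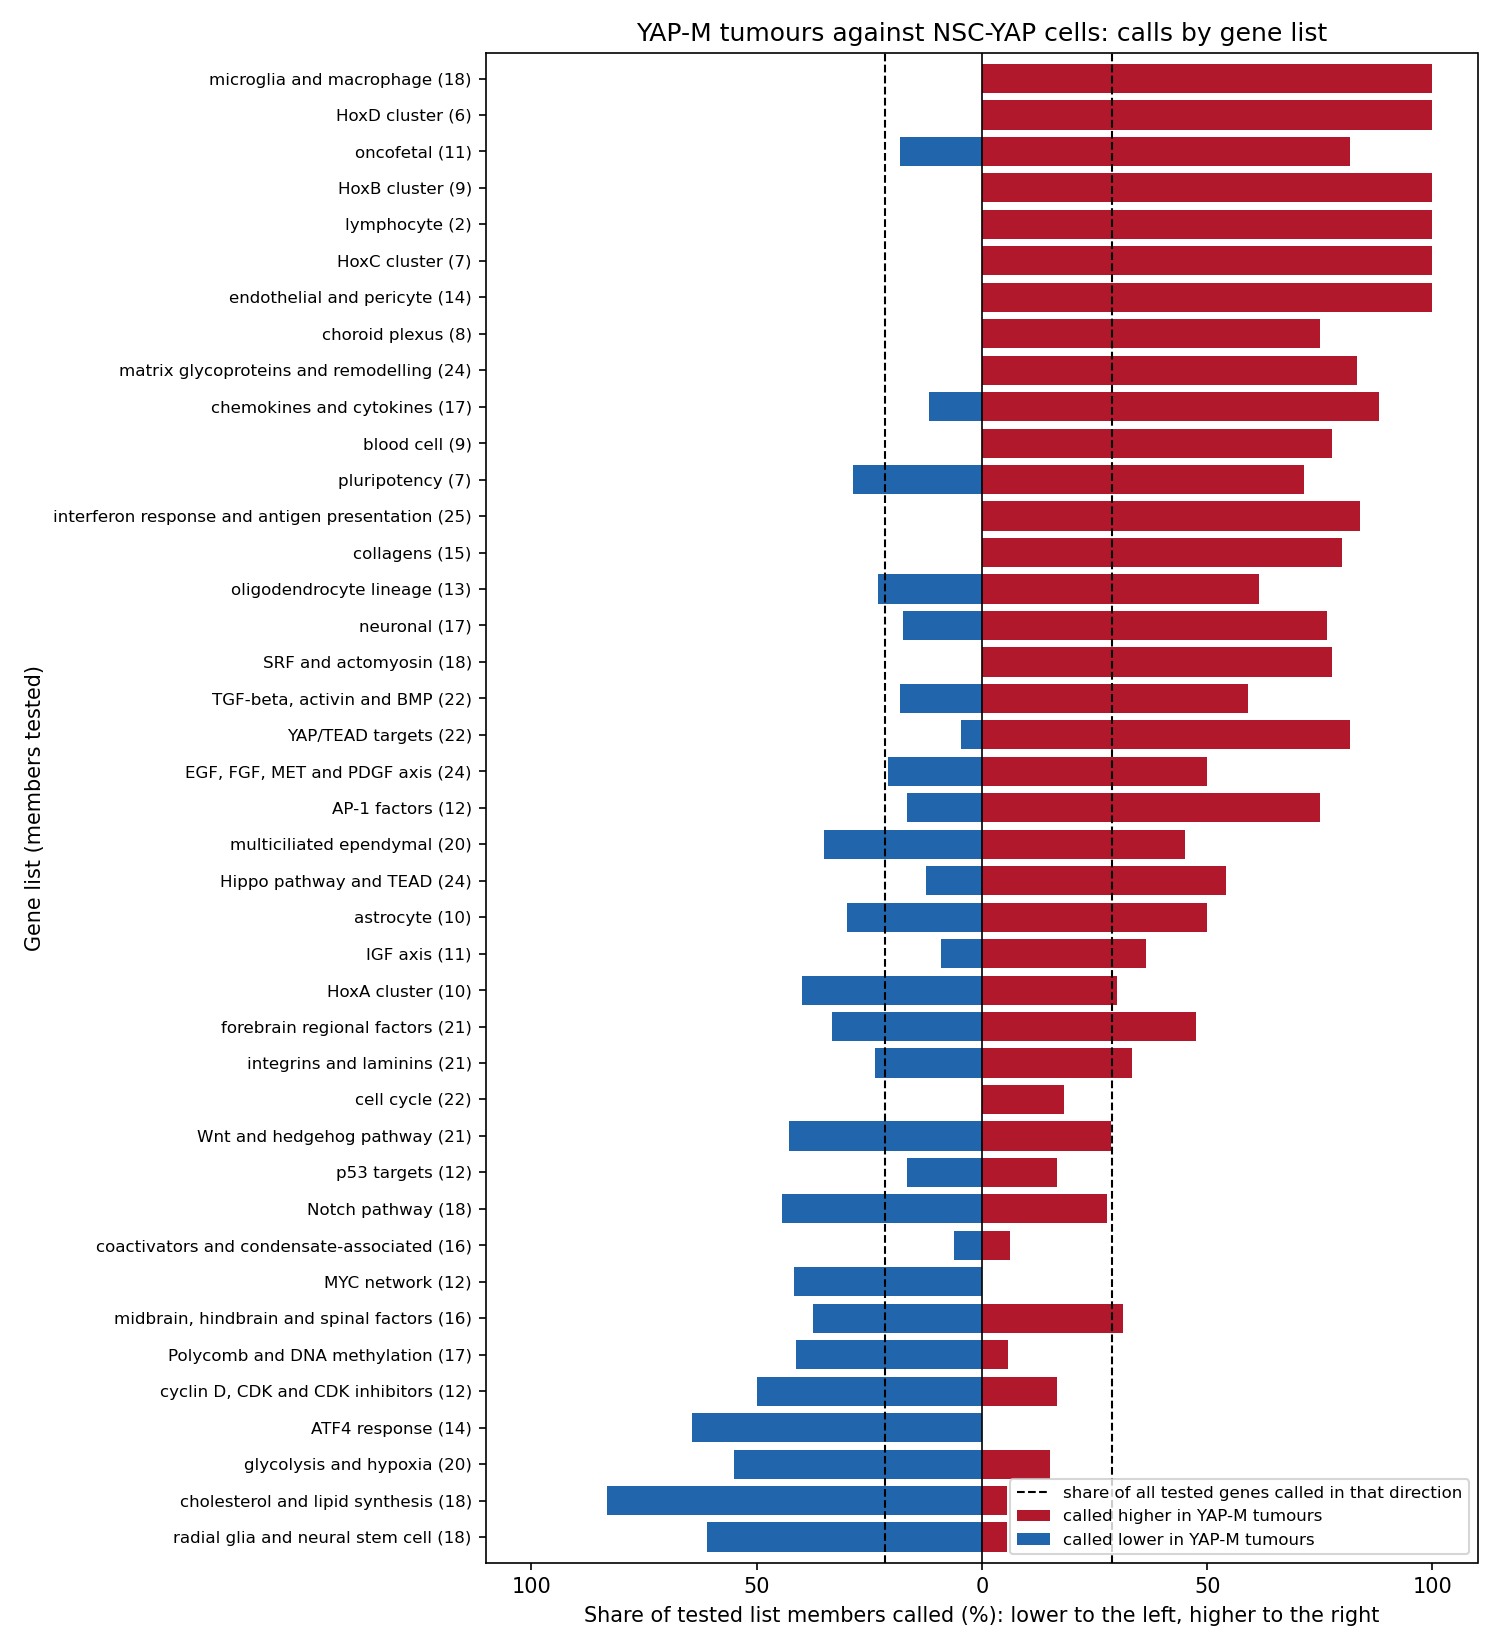
Share of the tested members of each gene list called higher (right) or lower (left) in YAP-M tumours than in NSC-YAP cells, in percent, with the number tested in parentheses. Dashed lines mark the shares over all tested genes, 28.9% higher and 21.6% lower, and lists are ordered by their median log2 fold change.

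The largest rises by the fitted fold change, among named genes above 5 CPM, were 12 genes without a count in either NSC-YAP library. Slc39a8, a zinc and manganese transporter, had 335, 259, 255 and 149 CPM in the tumours, at least 4077-fold higher. Nup62cl had 196, 177, 220.3 and 109.9 CPM, Fcrls, a gene of microglia, 176, 161, 74.6 and 64.03 CPM, and Il31ra, a cytokine receptor, 134, 105, 138 and 69.2 CPM. Prl3a1, a gene of the placental prolactin family, had 109, 84.98, 145 and 68.01 CPM, and the hair keratin-associated gene Krtap1-5 had 64.2, 62.1, 192 and 44.3 CPM. The others were Rian and Inhba, given above, and Ptprq, Rgs1, Ccdc68 and Csf2rb, with means of 97.1, 86.1, 77.1 and 70.7 CPM. None of the 12 belongs to the YAP/TEAD target list, in which every gene had counts in the NSC-YAP cells. The top of this ranking held only genes without such counts, so it cannot rank the targets against them.

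The largest falls by fold included Hes5, Dll3 and Sox3, described above, and Draxin, Garem2, Btbd17, Fgf11, Pipox, Fam181a, Osr2 and Olfr1349. Draxin, a repulsive axon guidance protein, had 1.07, 0.853, 1.37 and 1.71 CPM in the YAP-M tumours, against 158 and 167 CPM in the NSC-YAP cells. Garem2 had 2.58, 2.63, 4.70 and 4.83 CPM in the YAP-M tumours, against 218 and 224 CPM in the NSC-YAP cells. Btbd17 had 1.07, 0.594, 0.769 and 1.30 CPM in the YAP-M tumours, against 109 and 105 CPM in the NSC-YAP cells. These genes had only a few CPM in any tumour. Fgf11, an FGF that is not secreted, had 1.36, 2.52, 2.05 and 2.71 CPM in the YAP-M tumours, against 122 and 138 CPM in the NSC-YAP cells. Each of these 4 genes was above 100 CPM in both NSC-YAP libraries and below 5 CPM in each tumour. Pipox had 1.15 to 1.58 against 81.01 to 85.6 CPM, Fam181a 0.0742 to 0.641 against 19.4 to 20.5 CPM and Osr2, a zinc finger factor, 0.0369 to 0.171 against 14.7 to 17.1 CPM. Without tumour replicate 3 the log2 fold change of Fam181a was -7.38, against -6.37 with it. Olfr1349, which the files annotate as an olfactory receptor by its symbol, had 0, 0.0371, 0 and 0 CPM in the YAP-M tumours, against 16.3 and 15.9 CPM in the NSC-YAP cells.

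By absolute CPM, the differences were carried by other genes. The tumours gained most in Igf2, Peg10, Acta2, Hspa8, Cryab, Fn1, Tpm1, Thbs1, Pdpn, Gfap, Col5a2 and Cald1. Cryab, a small heat shock protein, had 1832, 2237, 1311 and 1990.4 CPM in the YAP-M tumours, against 185 and 179.7 CPM in the NSC-YAP cells. Hspa8, a constitutive chaperone, had 3116, 2658, 3465 and 2608 CPM in the YAP-M tumours, against 1288 and 1239 CPM in the NSC-YAP cells. Pdpn, podoplanin, had 1610.3, 1322, 1187 and 979 CPM in the YAP-M tumours, against 10.4 and 11.6 CPM in the NSC-YAP cells (log2 fold change 6.85, edgeR adjusted p = 1.04e-08). They lost most in Scd2, Gapdh, Slc1a3, Ckb, Gpi1, Ptprz1, Pea15a, Serpine2, Cst3, Eno1, Atp1b2 and Tubb2b. Several of these belong to glycolysis, lipid synthesis and glia. Ckb, the brain creatine kinase, had 311, 251, 392 and 298 CPM in the YAP-M tumours, against 3699 and 3457 CPM in the NSC-YAP cells. Gpi1, a glycolytic enzyme, had 280.4, 349.8, 275 and 358 CPM in the YAP-M tumours, against 3099.8 and 3018 CPM in the NSC-YAP cells. Serpine2, a secreted protease inhibitor, had 143, 118, 162 and 134 CPM in the YAP-M tumours, against 2214 and 2156 CPM in the NSC-YAP cells. Tubb2b, a tubulin of immature neural cells, had 171, 175, 181 and 227 CPM in the YAP-M tumours, against 1903 and 1799 CPM in the NSC-YAP cells.

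The genes of chromosome 15 were lower than those of the other chromosomes. Over 662 tested genes of this chromosome the median log2 fold change was -0.58, with 39.3% called lower and 22.5% higher, while the medians of the other 18 autosomes lay between -0.10 and 0.30, with 17.0% to 27.6% called lower. The 4 tumours gave medians of -0.62, -0.64, -0.59 and -0.59 against the mean of the NSC-YAP cells on log2(CPM + 0.1), and the mean of the tumours gave -0.59 and -0.56 against each NSC-YAP library. Along the chromosome, among windows of 10 megabases with at least 20 tested genes, medians ran between -0.99 and 0.64, with -0.71 to -0.99 in the 4 windows beyond 70 megabases. Measured the same way, the chromosome 15 median of the SVZ libraries minus NSC-YAP was -0.61 and of the YAP-M-dIDR libraries minus NSC-YAP -0.44, comparisons that share the NSC-YAP libraries, and it was 0.01 for YAP-M tumours minus SVZ. The X chromosome had the highest median, 0.36 over 682 genes, and gave 0.33, 0.31, 0.34 and 0.30 in the 4 tumours, tumour replicate 3 included. Among genes with a mean of at least 20 CPM its median was 0.13 over 299 genes, below the 0.18 of chromosome 13.

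**Figure D5:**
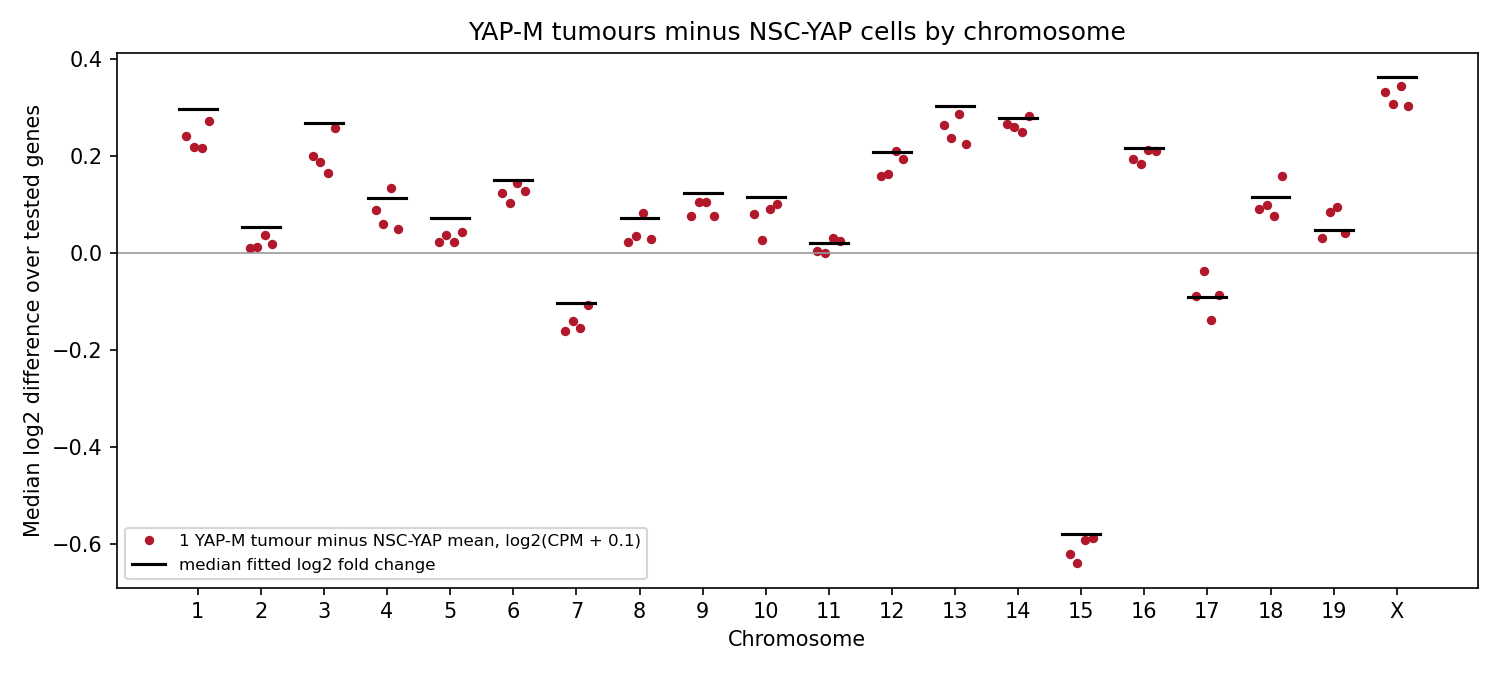
Median log2 difference over the tested genes of each chromosome, YAP-M tumours minus NSC-YAP cells. Points are the 4 tumours against the mean of the NSC-YAP cells on log2(CPM + 0.1), and black lines are medians of the fitted log2 fold change. Chromosome 15 lies at -0.58 and the other autosomes between -0.10 and 0.30.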

How the data were processed

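The gene-level counts used here were deposited by the submitters as whole numbers per library. Per the submitters' processing notes, TopHat2 and the mouse genome build mm10 were used. Per the labels' protocols, libraries were made from 1 ug of total RNA with a TruSeq kit after TRIzol extraction. The counting program, its annotation and its use of strand were not stated in what was used here, so overlapping or antisense genes and near-identical copies such as the globin, MHC and Ifit genes are uncertain.

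Lines that share a gene symbol (453 of 53090) were summed, which left 52850 symbols. The fit took the 12 libraries of the YAP-M tumour, YAP-M-dIDR, SVZ and NSC-YAP groups, and 18329 genes that reached 1 CPM in 2 or more of them were tested. In every list, a gene without a count in the NSC-YAP cells passed this filter only through other libraries. The test was edgeR's quasi-likelihood test (edgeR 4.0.16) with TMM factors, 1 coefficient per group and Benjamini-Hochberg adjustment over all tested genes; genes were called at adjusted p below 0.05 with a change of 2-fold or more. The script was tested on simulated counts. Counts of 0 over both NSC-YAP libraries were given a floor of 3 counts over the group, and genes with 1 to 3 counts a ratio with an exact 95% interval; both cover counting error only. Depth was 20784130 to 25463303 counts per library. Named genes were the 12 with the largest rise, fall, gain and loss above 5 CPM and up to 4 per list and direction; 97 further genes were chosen after their values were seen. Some of these genes are not reported here. The members and gene lists were chosen with earlier results of these data known. Same-numbered tumour and NSC-YAP libraries did not deviate together (Pearson's r -0.02 and -0.04), so no pairing was used. The libraries of each group differed beyond sampling noise and were all kept. Alternatives were other filters, scalings and tests, a replicate block and leaving out each library.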

Additional observations from a re-analysis of the deposited data

Results flagged for a closer look

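Among 362 named genes, 31 had 1 tumour whose gap to the nearest other tumour exceeded Dixon's 95% critical value for 4 samples, and chance flags about 1 in 20 groups. The outlying tumour was replicate 3 in 17 genes, replicate 4 in 7, replicate 2 in 4 and replicate 1 in 3.

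Replicate 3 stood apart in both sex-linked transcripts, with Xist at 1.03 CPM (355 to 361 CPM in the other tumours) and Ddx3y at 81.9 CPM (0.0369 to 0.111 CPM). It was high in Krtap1-5 at 192 CPM (44.3 to 64.2 CPM), in Sox3 at 2.56 CPM, in Sox1 at 2.86 CPM (1.64 to 1.81 CPM), in Fam181a at 0.641 CPM, in Lmx1b at 0.384 CPM, in the ciliary factor gene Rfx2 at 3.97 CPM, in Mxi1 at 43.7 CPM and in Mxd1 at 21.7 CPM. It was low in Igfbp5 at 56.9 CPM (108 to 117 CPM in the other tumours), in Notch1 at 16.7 CPM (20.9 to 21.3 CPM) and in Hes5 at 0.128 CPM (0.184 to 0.186 CPM). Hes5 had 18 counts over the 4 tumours, too few to tell these values apart. It was also low in Col12a1 at 511 CPM (1037 to 1083 CPM), in Fat4 at 33.7 CPM (68.9 to 72.4 CPM) and in Axl at 358 CPM (415 to 424 CPM).

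Replicate 4 was high in Hmgcs1 at 167 CPM (109.5 to 119 CPM in the other tumours), in Nr2f1 at 18.9 CPM (6.89 to 7.99 CPM), in Heyl at 7.58 CPM and in Esrrb at 1.26 CPM, and low in Ptch1 at 38.6 CPM, in Pcna at 103 CPM and in Cdk1 at 41.6 CPM (65.3 to 69.5 CPM). Replicate 2 was high in Pdk1 at 51.4 CPM, in Hoxa13 at 1.67 CPM in Srf at 110 CPM (83.8 to 86.9 CPM) and in Olfr1349 at 0.0371 CPM, a single count where the other tumours had 0. Replicate 1 was high in the pericyte genes Pdgfrb at 72.0 CPM (54.4 to 56.5 CPM) and Rgs5 at 100 CPM (63.6 to 68.2 CPM) and low in Dcx at 4.79 CPM (5.68 to 5.81 CPM). Several of these gaps are small beside the difference from the NSC-YAP cells.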

How the results depend on the processing

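The counts of genes called higher and lower, 5293 and 3951, were 6892 and 4306 with no filter on low counts (38279 tested), 3871 and 2988 with a minimum of 5 CPM (14554 tested), 5551 and 3626 with median-ratio scaling, 3614 and 4606 with quantile normalization and limma, 5629 and 3640 with DESeq2, 4929 and 3653 with the compared groups alone, and 5285 and 3951 with the highest line per symbol. Without the limit on fold change they were 7034 and 6326. Leaving out 1 library gave 4713 to 5333 higher and 3524 to 3880 lower. With the replicate number as a replicate block they were 5138 and 4069, and the numbers did not pair the libraries. The median log2 fold change of all genes, 0.10, was -0.16 after quantile normalization, a shift that bears on the direction of small changes. That setting also added 0.5 CPM before the log, and the part of this offset was not tested. The chromosome 15 median of -0.58 was -0.63 with a minimum of 5 CPM, -0.49 with median-ratio scaling and -0.67 after quantile normalization, and the cause of these moves was not tested. Of 5396 values of named genes under other settings, 5291 kept their direction and side of the threshold, 72 lost their call, 24 gained one and 9 turned direction. Of the log2 fold changes that turned, Hoxb2 belonged to a called gene, with 17 tumour counts in all, and was -0.11 after quantile normalization, the other cases being genes not called. After quantile normalization Vim was 0.19, Hoxa7 -0.49 and Hoxa13 -0.78. Leaving out 1 library, Cdk1 was between -0.054 and 0.20, Slc2a1 between -0.017 and 0.24, and Hoxa13 between -0.020 and 0.43. DESeq2 gave no adjusted p for 18 genes. Depth limits genes near 0 in 1 group, whose fold changes are bounds or rest on a few counts, and 2 NSC-YAP libraries limit every test.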
